A study of Astyanax mexicanus with 22 samples.

Results

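Ovaries of control Pachón cavefish were compared with ovaries of control surface fish of the same species, Astyanax mexicanus. The comparison used 12 of the 22 libraries of the series, chosen by their labels as the control libraries of both forms: 6 Pachón libraries (4 of a batch labelled old and 2 of a batch labelled new) and 6 surface libraries (4 old and 2 new). The other 10 libraries came from starved fish and entered only 1 of the alternatives in the closing section. All 12 libraries are labelled as ovary, genotype WT and non-treated, and no transgene, mutation or agent is named for any of them. The design text states right-side ovaries and approximate ages of 500 and 1200 days post fertilization and does not assign an age to a batch. The labels do not say whether a library came from 1 fish or from several, so the p-values below rest on the spread between libraries alone.

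Surface fish are the eyed, pigmented river form of the species, and Pachón fish are a blind, pale cave form that lives in darkness on a sparse food supply. A teleost ovary holds follicles, in which an oocyte is wrapped by granulosa and theca cells, within a stroma of fibroblasts, smooth muscle, vessels and immune cells. Growing oocytes store messenger RNA, ribosomes and mitochondria for the embryo and contribute much of the RNA of the organ. Signals of the TGF-beta family, gonadotropins and steroids pass between oocyte and follicle cells. In RNA from a whole ovary, fewer cells of a type and less RNA per cell cannot be told apart.

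The libraries held 4860620 to 6511376 counts in genes. Of all reads listed, 8.64% to 10.95% were unmapped in Pachón and 7.56% to 9.58% in surface libraries, and 10.65% to 17.6% against 10.78% to 14.67% were multimapping. Markers of germ cells were abundant in every library, with a summed level of 1920.0 to 2630.0 counts per 1e+06 gene counts (CPM) in Pachón and 1820.0 to 2130.0 CPM in surface libraries over 8 genes. Granulosa markers summed to 5.28 to 8.6 and 4.18 to 16.3 CPM, and testis markers to 1.66 to 3.82 and 3.46 to 7.05 CPM. Among somatic markers, those of granulosa and of theca and interstitial cells overlapped between the surface batches, at 4.18 to 12.8 CPM in the old and 11.9 to 16.3 CPM in the new libraries for the first and 2.63 to 22.9 CPM in the old and 9.46 to 19.4 CPM in the new for the second. Markers of stroma, smooth muscle and macrophages separated these batches. Stroma markers summed to 11.3 to 40.1 CPM in the old and 126.0 to 167.0 CPM in the new surface libraries, against 45.4 to 113.0 CPM in Pachón libraries. Smooth muscle markers lay at 11.1 to 31.4, 43.2 to 64.4 and 22.9 to 41.4 CPM in the same order, and macrophage markers at 12.5 to 35.1, 59.9 to 63.1 and 34.2 to 50.4 CPM. Endothelial markers separated them as well, at 1.06 to 4.65 CPM in the old and 8.08 to 14.8 CPM in the new. So did skeletal muscle markers, at 0.353 to 0.969 CPM in the old and 4.3 to 10.3 CPM in the new. Testis markers lay at 3.46 to 5.62 CPM in the old and 6.64 to 7.05 CPM in the new surface libraries. This set holds dmrt1, amh, gsdf and sox9a, of which amh is also a granulosa marker and gsdf is in the granulosa list below. The gene gsdf alone lay at 2.3 to 3.68 CPM in the old and at 6.02 and 5.65 CPM in the new surface libraries. The sum therefore does not single out testis tissue. The part of these somatic levels in the results below was not tested.

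**Figure D1:**
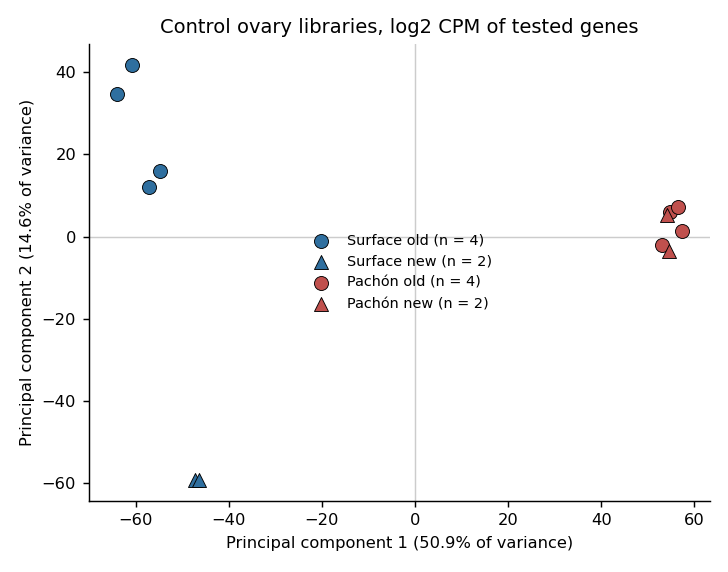
Principal components of log2 CPM over the tested genes, with 1 point per control library, colour for the form and shape for the batch. The 6 Pachón libraries lie between 53.1 and 57.4 on the first component and the 6 surface libraries between -64.0 and -46.4, and the 2 new surface libraries lie at -59.3 on the second.

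The first principal component held 50.9% of the variance and separated the forms (the plot of principal components). The second, with 14.6%, spread the surface libraries from -59.3 to 41.8 and set the new batch apart from the old, while the 6 Pachón libraries spanned only -3.60 to 7.14.

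Of 14516 genes abundant enough to be tested, 2806 were higher in Pachón ovaries (19.3%) and 2925 were lower (20.2%), at an adjusted p under 0.05 in edgeR's quasi-likelihood test with batch as a term. Changes are given as log2 of Pachón over surface ± SE, with adjusted p from this test, and such genes are written as called. The median change over all tested genes was 0.00 and the median size of a called change was 0.66. Of the called genes, 1099 were at least 2-fold higher and 974 at least 2-fold lower, and 551 and 420 passed 4-fold. All 6 Pachón libraries lay above all 6 surface libraries for 1365 genes (9.40%), and all lay below for 1420 (9.78%). Within the old batch, 2508 genes were called higher and 2653 lower, and within the new batch 1422 and 1413, read from 1 model of the 4 groups. The sign was the same in both batches for 5626 of the 5731 called genes. The size of the difference between the forms itself differed between the batches for 312 genes (2.15%).

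**Figure D2:**
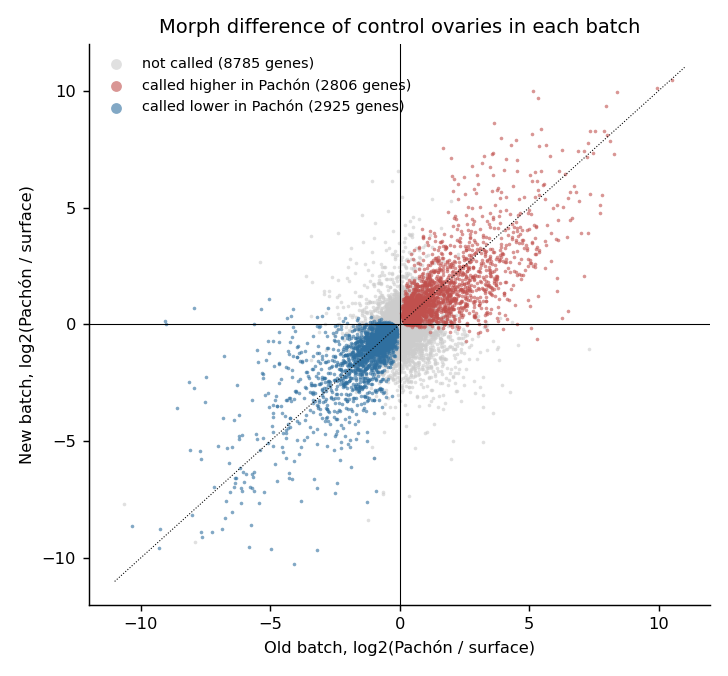
Log2 of Pachón over surface in the old batch (horizontal axis) and the new batch (vertical axis), with 1 point per tested gene. Most of the 2806 genes called higher lie in the upper right and most of the 2925 called lower in the lower left. The dotted line marks equal change.

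Among the widest differences were genes read at many counts in one form and almost none in the other. How far the reads of each form matched the reference at these genes was not tested. This limit holds for each level near 0 and each fold given as a lower bound. In the values that follow, the 3 levels given for each form are the lowest, the median and the highest library. CNGA3 (ENSAMXG00000035630, a symbol on 2 gene rows), which encodes a subunit of the cyclic nucleotide-gated channel of cone photoreceptors, lay at 16, 21.8 and 30.2 CPM in Pachón and 0, 0 and 0 CPM in surface libraries. No surface library held a read of it, against 733 counts in the Pachón libraries, which makes it at least 44.3-fold higher in Pachón when surface libraries are set to a floor of 3 counts each. The gene sting1 (ENSAMXG00000035008), for the adaptor through which cytosolic DNA sensing signals, lay at 10.6, 15.9 and 21.4 CPM in Pachón and 0, 0 and 0.177 CPM in surface libraries. Every Pachón library was above every surface library, and the change was 8.28 ± 0.45 (adjusted p = 2.83e-08), at 7.97 in the old batch and 9.33 in the new. LIN7B (ENSAMXG00000035915), which encodes a scaffold protein of cell junctions and synapses and is a symbol on 3 rows, had 23.4, 27.22 and 36.4 CPM in Pachón and 0, 0.0774 and 0.177 CPM in surface libraries. Its change was 8.05 ± 0.33 (adjusted p = 3.70e-09).

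The neuregulin receptor gene erbb3b (ENSAMXG00000018110) lay at 30.5, 37.9 and 42 CPM in Pachón and 0, 0.371 and 1.33 CPM in surface libraries, a change of 6.18 ± 0.34 (adjusted p = 2.93e-08). The transcription factor gene glis3 (ENSAMXG00000019181) lay at 10.4, 25.3 and 52.2 CPM in Pachón and 0, 0.241 and 0.688 CPM in surface libraries (change 6.41 ± 0.56, adjusted p = 3.13e-06). For both genes the 2 forms did not overlap. MLANA (ENSAMXG00000018171), a melanosome protein of pigment cells, had 7.92, 12 and 17 CPM in Pachón and 0, 0.0774 and 0.344 CPM in surface libraries (change 6.24 ± 0.48, adjusted p = 6.73e-07). The gene ucp1 (ENSAMXG00000005590), for a carrier that uncouples mitochondrial respiration in mammalian brown fat, had 6.48, 8.66 and 11.6 CPM in Pachón and 0, 0 and 0.498 CPM in surface libraries (change 6.07 ± 0.52, adjusted p = 1.97e-06). The pale form had the higher level of MLANA. Of the 7 tested genes of a list on melanin and albinism it was the 1 called. That made 14.3% higher and 0 lower, against 19.3% and 20.2% of all tested genes. The gene oca2, whose mutation underlies albinism in Pachón fish, lay at 22 to 43.5 CPM in Pachón and 30.8 to 63.4 CPM in surface libraries (change -0.39 ± 0.18, adjusted p = 0.113). Fitted on the old batch alone, oca2 was called lower (change -0.529, adjusted p = 0.0389). Its change in the new batch was -0.08. Without Pachón new replicate 1 the change of oca2 over both batches was -0.561.

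Other wide rises were smaller in level. The metalloprotease gene adamts10 and the carboxypeptidase gene CPA6 had no read in surface libraries. Their Pachón means were at least 9.19-fold and 11.1-fold higher by the same floor. Single Pachón libraries ranged over 1.53 to 10.2 CPM for adamts10 and 0.589 to 9.15 CPM for CPA6, so these folds do not hold for each library. TMEM65 (2 rows), cacng8a, an AMPA receptor auxiliary subunit, and ADCYAP1R1, the receptor of the peptide PACAP, lay at 3.13 to 6.68, 11.2 to 22.8 and 3.05 to 8.44 CPM in Pachón against 0 to 0.166, 0 to 0.388 and 0 to 0.194 CPM in surface libraries. All 3 were called, with changes of 6.61, 6.37 and 5.69. The recombinase gene rag1 of lymphocyte development was called as well (change 7.97 ± 1.58, adjusted p = 0.00216), but its Pachón libraries ranged from 0 to 26.9 CPM and overlapped the surface libraries. Voom with sample weights did not call rag1 (adjusted p = 0.313).

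**Figure D3:**
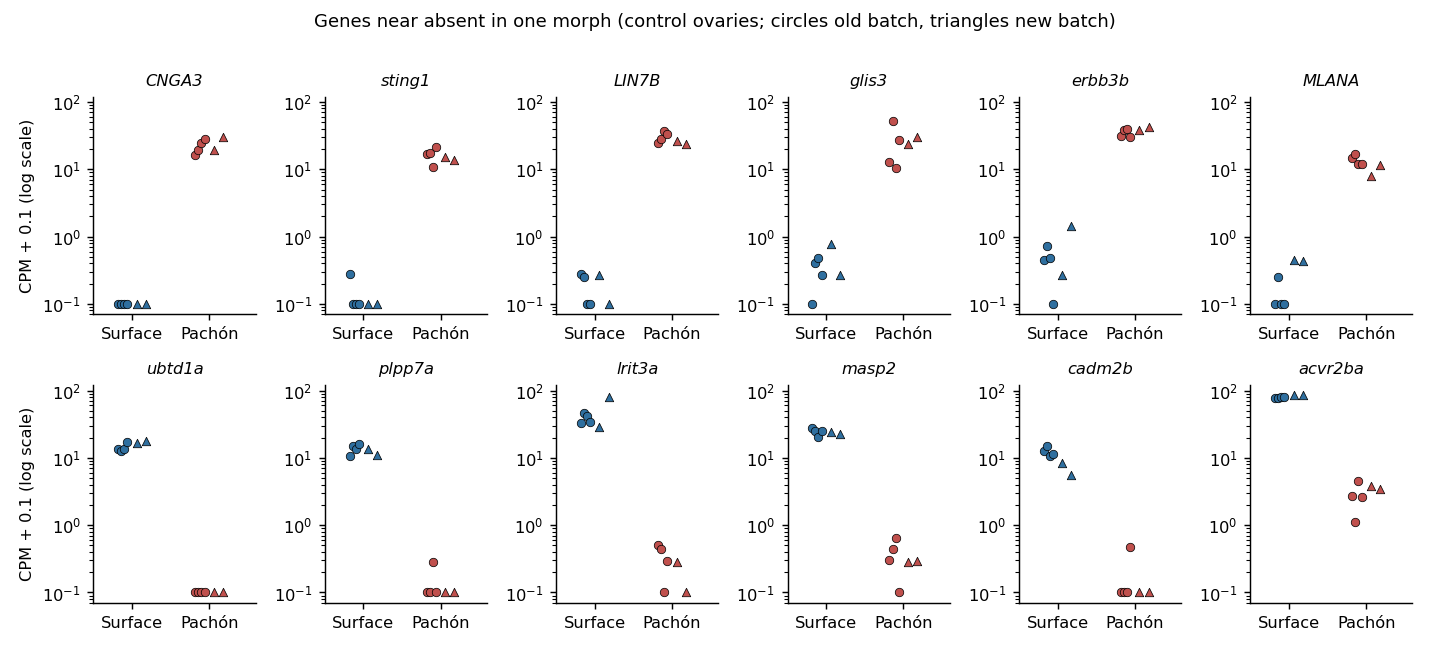
CPM plus 0.1 on a log axis for 12 genes, with 1 point per control library, circles for the old and triangles for the new batch. The upper row holds genes near 0 in surface fish and the lower row genes near 0 in Pachón fish, of which acvr2ba keeps 1.02 to 4.39 CPM in Pachón libraries.

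Among genes lower in Pachón, ubtd1a (ENSAMXG00000043652), for a protein with a ubiquitin-like domain, had no read in any Pachón library and 12.5 to 17.8 CPM in surface libraries (529 counts). It was at least 26.9-fold lower in Pachón by the floor of 3 counts. The gene plpp7a (ENSAMXG00000030606), of the phospholipid phosphatase family, lay at 0, 0 and 0.183 CPM in Pachón and 10.4, 13.3 and 15.7 CPM in surface libraries (change -7.94 ± 0.44, adjusted p = 3.05e-08). For lrit3a (ENSAMXG00000041737), whose mammalian counterpart acts at photoreceptor synapses, the levels were 0, 0.188 and 0.405 CPM in Pachón and 28.9, 37.5 and 80.9 CPM in surface libraries (change -7.7 ± 0.43, adjusted p = 3.89e-08). The protease gene masp2 (ENSAMXG00000013147), which starts the lectin pathway of complement, lay at 0, 0.199 and 0.549 CPM in Pachón and 20.2, 24.6 and 27.6 CPM in surface libraries (change -6.48 ± 0.29, adjusted p = 6.30e-09). In all 4 genes the lowest surface library stood above the highest Pachón library. The same held for the adhesion molecule gene cadm2b (0 to 0.382 against 5.48 to 14.9 CPM), LRRC73 (0 to 0.183 against 4.8 to 15.2 CPM), RBPJL, a relative of the Notch effector RBPJ (0 to 0.607 against 4.96 to 25.4 CPM), and the receptor phosphatase gene ptprja (0 to 0.191 against 2.13 to 30.6 CPM). Their changes were -6.97, -7.31, -6.4 and -7.02, and all were called.

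A few large falls rested on surface libraries that differed widely among themselves. The lipoxygenase gene alox12 ranged over 0.498 to 81.9 CPM in surface libraries against 0 to 0.982 CPM in Pachón. It was called (change -6.97 ± 1.39), but not by voom with sample weights (adjusted p = 0.306). The fetuin gene ahsg2 was at 0 to 63.5 CPM in surface libraries and prg4a, for lubricin, at 0 to 11.6 CPM, each with surface libraries at 0. The call of ahsg2 (change -8.6 ± 1.95, adjusted p = 0.00534) was lost without Pachón new replicate 2 (adjusted p = 0.0932).

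The genes called higher with the most counts, by mean CPM that is not scaled for gene length, included 3 cyclin genes. The B-type cyclins ccnb1 and ccnb2 and the A-type cyclin ccna1, which drive meiotic maturation, changed by 0.44 ± 0.11, 0.46 ± 0.12 and 0.58 ± 0.12. The maternal zinc finger gene cth1 (0.55), the egg coat gene zpcx (0.43) and the chaperone gene hspa8 (0.41) were also higher. For these 6 of the 8 such genes the libraries of the 2 forms overlapped, as in ccnb1 with 1844 to 2895 CPM in Pachón and 1583 to 1998 CPM in surface libraries. The calls of ccnb1, ccnb2, zpcx and hspa8 were lost when all 22 libraries were fitted together (adjusted p = 0.0841, 0.0592, 0.0775 and 0.081). On the lower side, KNTC1 (ENSAMXG00000011908), a kinetochore protein of the spindle checkpoint, had 258, 279 and 315 CPM in Pachón and 1460.3, 1678 and 1933 CPM in surface libraries. Its change was -2.56 ± 0.08 (adjusted p = 4.32e-10), at -2.47 in the old batch and -2.75 in the new, and the forms did not overlap. The pericentriolar protein gene pcnt (-0.40), cad, the enzyme that starts pyrimidine synthesis (-0.71), the chromatin remodelling gene baz2a (-0.48) and PRRC2C (-0.26) changed by less, each with all Pachón libraries below all surface libraries.

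In TGF-beta signalling, receptor genes differed in opposite directions. The gene acvr2ba (ENSAMXG00000021386) encodes a type II receptor that binds activins and bone morphogenetic proteins. Its levels were 1.02, 2.98 and 4.39 CPM in Pachón and 77.2, 80.4 and 86.3 CPM in surface libraries. The surface libraries varied little, and every one of them stood far above every Pachón library. The change was -4.8 ± 0.18 (adjusted p = 3.07e-09), at -4.91 in the old batch and -4.61 in the new. In the same pathway, the type I receptor gene tgfbr1b (18 to 26.5 against 1.74 to 13.6 CPM, change 2.19 ± 0.43) and the signal transducer gene smad3a (4.65 to 6.48 against 0.388 to 2.16 CPM, change 2.23 ± 0.36) were higher in Pachón without overlap. The BMP target gene id3 was lower (change -2.7 ± 0.49). The symbol SMURF2, a ubiquitin ligase that limits this pathway, stands on 2 rows that moved apart: SMURF2 (ENSAMXG00000015460) changed by -0.63 ± 0.08 and smurf2 (ENSAMXG00000034632) by 1.3 ± 0.22. Of 40 tested genes of TGF-beta, BMP and activin signalling, 8 were higher (20%) and 10 lower (25%), against 19.3% and 20.2% of all genes.

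ZNRF3 (ENSAMXG00000043467), a ubiquitin ligase that removes Wnt receptors from the cell surface, lay at 47.4, 61.4 and 88.4 CPM in Pachón and 234, 265 and 279 CPM in surface libraries. The forms did not overlap, and the change was -1.99 ± 0.11 (adjusted p = 2.50e-08). The gene wls, for the carrier that takes Wnt proteins to the cell surface, was lower as well (-0.84 ± 0.07). Of 44 tested Wnt genes 5 were higher (11.4%) and 12 lower (27.3%), against 19.3% and 20.2% of all tested genes. The median change of the list was -0.09 against 0.00 for all genes.

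In insulin signalling, the receptor substrate gene irs2a (ENSAMXG00000025890) had 2.58, 6.31 and 8.23 CPM in Pachón and 44.5, 48.3 and 53.6 CPM in surface libraries. The forms did not overlap, and the change was -3.06 ± 0.18 (adjusted p = 3.89e-08), at -2.82 in the old batch and -3.63 in the new. The kinase genes akt2 (0.35 ± 0.07) and akt3a (1.82 ± 0.37) were higher, the transcription factor gene KLF15 (2 rows) was higher (1.53 ± 0.34), and mtor, the nutrient-sensing kinase, was lower by a small amount (-0.26 ± 0.06). Over the list, 7 of 34 tested genes were higher (20.6%) and 4 lower (11.8%), against 19.3% and 20.2% of all tested genes. The number higher was 4 without Pachón old replicate 2 and 4 without surface new replicate 1.

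Of the oocyte genes, the growth factors and most germ cell markers did not pass the test. The oocyte growth factors gdf9 and bmp15 lay at 53.5 to 65.2 and 107 to 124 CPM in Pachón and at 49.6 to 81.9 and 83 to 143 CPM in surface libraries, with changes of -0.04 ± 0.09 and 0.04 ± 0.10 that did not pass the test. The germ cell genes ddx4 (0.12 ± 0.07), dazl (0.01 ± 0.10) and piwil2 (0.14 ± 0.06) were not called either. Without Pachón new replicate 2, piwil2 was called (change 0.171, adjusted p = 0.0478). The median change over 26 tested oocyte transcripts was 0.19. Of these, 9 were higher (34.6%, against 19.3% of all tested genes) and 2 lower (7.69%, against 20.2%). Among them were mos, the kinase that holds eggs in metaphase (249 to 323 against 175 to 232 CPM, change 0.43 ± 0.08), zar1l (0.56 ± 0.11) and zar1 (0.45 ± 0.12), which bind maternal RNA, and org (0.41 ± 0.08). The transcription factor gene figla, which turns on egg coat genes in mouse oocytes, was lower (2.86 to 6.08 against 5.65 to 10.7 CPM, change -0.95 ± 0.20), and trim36 was lower (-0.34 ± 0.06). The call of zar1 was lost when all 22 libraries were fitted (adjusted p = 0.124). The summed germ cell markers had a median of 2360.0 CPM in Pachón and 2030.0 CPM in surface libraries, with overlapping ranges, and their part in these values was not tested.

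Of 20 tested genes of germ plasm and the piRNA pathway, which silences transposons, 4 were higher (20%) and 5 lower (25%). Over all tested genes 19.3% were higher and 20.2% lower. The Tudor domain genes went both ways: tdrd3 (192 to 229 against 98 to 132 CPM, change 0.84 ± 0.07) and tdrd9 (0.74 ± 0.10) were higher, and tdrd1 (266 to 329 against 365 to 465 CPM, change -0.57 ± 0.07), tdrd15 (-0.37 ± 0.08) and tdrd7b (-3.46 ± 0.72) were lower. For the first pair and for tdrd1 the forms did not overlap. The genes piwil1 (0.53 ± 0.14) and asz1 (0.33 ± 0.08) were higher. The calls of piwil1, asz1 and tdrd15 were lost with all 22 libraries (adjusted p = 0.0696, 0.0601 and 0.108). Of 8 tested genes of the egg coat list, zpcx was higher (12.5%) and 2 were lower (25%). One of these was the lipoxygenase gene alox12, described above, which the list holds although it encodes no egg coat protein. The other was zp3d.2, which lay at 115, 122 and 140.3 CPM in Pachón and 169, 178 and 192 CPM in surface libraries (change -0.53 ± 0.06, adjusted p = 1.36e-05).

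Of 16 tested meiotic genes 6 were higher (37.5%, against 19.3% of all tested genes) and 1 lower (6.25%, against 20.2%). The gene sycp1 (ENSAMXG00000016490), for the transverse filament of the synaptonemal complex that joins paired chromosomes, lay at 18.7, 26.4 and 49.1 CPM in Pachón and 2.91, 5.76 and 7.22 CPM in surface libraries. Its change was 2.49 ± 0.26 (adjusted p = 9.79e-06), at 2.59 in the old batch and 2.3 in the new. The gene hormad1 (ENSAMXG00000018798), for a protein of the chromosome axis, lay at 14.1, 15.4 and 17.1 CPM in Pachón and 2.66, 4.35 and 7.26 CPM in surface libraries (change 1.8 ± 0.23, adjusted p = 4.91e-05). The gene spo11, for the enzyme that makes meiotic DNA breaks, lay at 6.68, 8.17 and 10.9 CPM in Pachón and 0, 1.91 and 4.82 CPM in surface libraries (change 2.29 ± 0.58, adjusted p = 0.0072). The change of spo11 was 3.07 in the old batch and 1.01 in the new, where it was not called. For sycp1, hormad1 and spo11, all among the 6 of the list with the smallest p, every Pachón library was above every surface library. This held for 4 of the 16 tested genes, and in 0 all Pachón libraries lay below. Over all tested genes these shares were 9.40% and 9.78%. The histone methyltransferase gene prdm9 (0.19 ± 0.05) and the cohesin protector gene sgo1 (0.23 ± 0.07) were higher by small amounts. Their calls were lost when the old batch was fitted alone (adjusted p = 0.0513 and 0.0652). They were also lost when the new batch was fitted alone (adjusted p = 0.209 and 0.0887). The gene mei4, whose product helps Spo11 to cut, was lower (-0.51 ± 0.09).

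Follicle and stroma genes gave few calls. Of 17 tested granulosa genes, 1 was higher (5.88%) and 2 lower (11.8%), against 19.3% and 20.2% of all tested genes. The gonadal transcription factor gene lhx9 was higher (7.73 to 21.1 against 0.465 to 4.84 CPM, change 2.8 ± 0.51) and the Wilms tumour factor gene wt1b lower (0.737 to 4.77 against 6.54 to 12.6 CPM, change -1.95 ± 0.37), both without overlap. Aromatase, which makes estrogen and is encoded by cyp19a1a, was lower (0.511 to 2.39 against 0.774 to 4.82 CPM, change -1.2 ± 0.40, adjusted p = 0.0304). That call was lost when any of 6 libraries was left out, with adjusted p up to 0.0764. They were surface old replicate 3, Pachón old replicates 2 and 4, both surface new libraries and Pachón new replicate 2, and the changes without them were -1.04, -1.14, -1.17, -1.18, -1.13 and -0.967. The gonadotropin receptor genes fshr (-0.19 ± 0.44) and lhcgr (0.53 ± 0.52), the androgen synthesis gene cyp17a1 (0.68 ± 0.40) and the granulosa factor gene foxl2b (0.04 ± 0.37) were not called. These genes were at low levels, such as 1.66 to 4.39 CPM for fshr in Pachón libraries.

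Among 19 tested genes of steroid synthesis 3 were higher (15.8%) and 3 lower (15.8%), against 19.3% and 20.2% of all tested genes. The 17-beta-hydroxysteroid dehydrogenase family gene hsd17b12b (14.9 to 59.7 against 4.27 to 11 CPM, change 2.21 ± 0.31) and tspo, of the outer mitochondrial membrane (12.6 to 16.6 against 3.18 to 8.82 CPM, change 1.45 ± 0.23), were higher without overlap. The genes hsd11b1la (15.2 to 20.8 against 31.5 to 36.9 CPM, change -0.91 ± 0.10) and hsd17b8 (-1.07 ± 0.23) were lower without overlap. The call of hsd3b7 (change 0.50 ± 0.17, adjusted p = 0.0315) was lost when any of 6 libraries was left out: surface old replicate 2, Pachón old replicates 1, 2 and 3, surface new replicate 1 and Pachón new replicate 2, with changes of 0.425, 0.473, 0.476, 0.484, 0.475 and 0.416. Among 16 tested receptors of gonadotropins, steroids and progestins, 3 were higher (18.8%) and 1 lower (6.25%). They include the glucocorticoid receptor row NR3C1 (2 rows, 10.7 to 14.6 against 1.24 to 6.59 CPM, change 1.72 ± 0.33) and the membrane progestin-binding gene pgrmc2 (46 to 53.8 against 22 to 39 CPM, change 0.76 ± 0.10), both higher without overlap. The other glucocorticoid receptor row, nr3c1 (ENSAMXG00000011646), was not called (11.1 to 18.8 against 7.07 to 13.8 CPM, change 0.37 ± 0.18, adjusted p = 0.12).

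Against 19.3% higher and 20.2% lower over all tested genes, 0 of 19 tested stroma and matrix genes were higher and 1 lower (5.26%). That gene, fn1a for fibronectin (change -0.35 ± 0.11, adjusted p = 0.0236), lost its call without any of surface old replicate 3, Pachón old replicate 3, surface new replicate 1 or Pachón new replicate 1, with changes of -0.276, -0.328, -0.301 and -0.287. Within the batches the list went opposite ways, with a median change of 0.59 in the old batch and -1.15 in the new. Medians of opposite sign, positive in the old and negative in the new batch, also came from other lists. Among them were granulosa cells (0.498 and -0.648), gonadotropin, steroid and progestin receptors (0.8 and -0.454) and endothelium (0.281 and -0.801). Smooth muscle (0.624 and -0.102) and ciliated and coelomic epithelium (0.406 and -0.945) had the same signs. So had steroid synthesis (0.265 and -0.128), liver (1.4 and -0.266), red cells (0.502 and -0.0726) and cholesterol (0.014 and -0.275). The remaining ones were TGF-beta signalling (0.113 and -0.165), innate sensing (0.0711 and -0.112), fatty acid oxidation (0.16 and -0.0163) and macrophages and neutrophils (0.392 and -1.72). The collagen genes col1a2 and col1a1a, not called over both batches, had log2 values of 2.05 and 1.63 in the old batch and -1.07 and -0.99 in the new. The smooth muscle actin gene acta2 had a log2 value of 0.81 ± 0.40 and was called only without surface old replicate 3 among the alternatives run (change 1.13, adjusted p = 0.0451). The summed stroma markers, which include both collagen genes, and smooth muscle markers, which include acta2, were low in old and high in new surface libraries. These sums are therefore not independent of the values of those genes. Among 10 tested endothelial genes 1 was higher (10%) and 3 lower (30%), with a median of 0.01 and a positive change in 5 of the 10. The 1 higher was lyve1a (0.915 to 3.92 against 0.155 to 1.99 CPM, change 1.64 ± 0.51). Among the lower were plvapa (0 to 0.682 against 1.24 to 2.48 CPM) and vwf (2.16 to 4.05 against 3.98 to 16.6 CPM), which are expressed in vessel walls. The call of vwf was lost in the old batch alone (adjusted p = 0.0536).

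The circadian clock is a loop in which activators such as Bmal switch on their own repressors, and cavefish are known for altered clock rhythms. The labels do not give the hour at which ovaries were taken. The activator gene bmal1a (ENSAMXG00000011758) lay at 18.8, 22.3 and 25.4 CPM in Pachón and 43.7, 50.4 and 59.4 CPM in surface libraries, without overlap (change -1.22 ± 0.11, adjusted p = 2.45e-06). The period gene per3 (ENSAMXG00000003662), a repressor, lay at 85.3, 94.1 and 138 CPM in Pachón and 23.3, 34.3 and 45.5 CPM in surface libraries (change 1.6 ± 0.16, adjusted p = 1.06e-05). The gene nfil3 (ENSAMXG00000024924), for a repressor of clock output, lay at 77.5, 85.4 and 89.1 CPM in Pachón and 11.9, 24 and 33 CPM in surface libraries (change 1.85 ± 0.19, adjusted p = 1.31e-05). The repressor gene nr1d2b was higher as well (38.2 to 55.6 against 18.8 to 27.9 CPM, change 1.0 ± 0.11). Of the PAR bZIP output factors, tefb was lower (24.5 to 40.2 against 57.1 to 74.4 CPM, change -1.09 ± 0.10) and hlfb, near 0 in surface fish, was higher (3.24 to 7.5 against 0 to 0.344 CPM, change 5.71 ± 0.59). None of these 6 genes, picked from the list by smallest p, had overlapping forms. In 8 of the 39 tested clock genes all Pachón libraries lay above all surface libraries, and in 6 all lay below. Over all tested genes this held for 9.40% and 9.78%. Over the list, 10 of 39 tested genes were higher (25.6%) and 8 lower (20.5%), against 19.3% and 20.2% of all tested genes. The median of the list was 0.02.

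**Figure D4:**
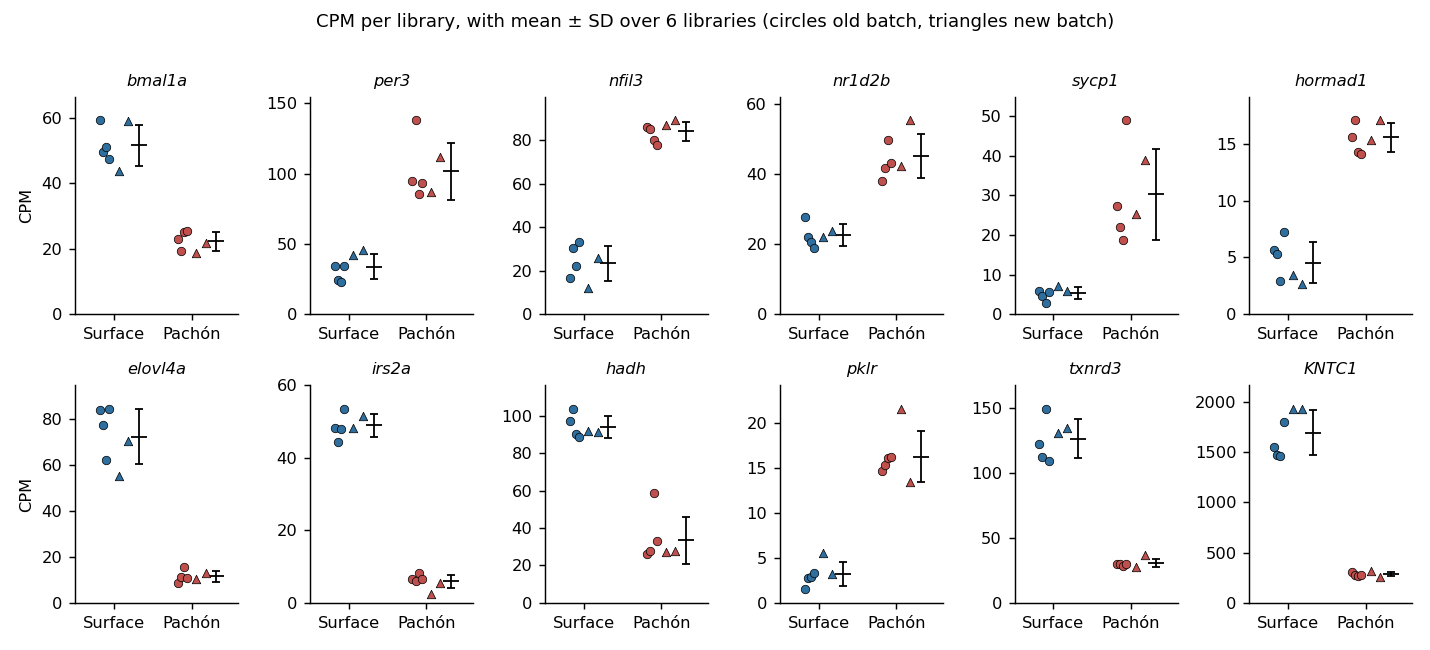
CPM per control library for 12 genes of the clock, meiosis, metabolism, redox and kinetochore groups, with circles for the old and triangles for the new batch, and bars for the mean ± SD over 6 libraries of a form. All 12 were picked from the called genes, and no gene shown has overlapping forms. Over all tested genes, all Pachón libraries lay above all surface libraries for 9.40% and below for 9.78%. KNTC1, for example, spans 258 to 315 CPM in Pachón and 1460.3 to 1933 CPM in surface libraries.

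Of 67 tested DNA repair genes 16 were higher (23.9%, against 19.3% of all tested genes) and 8 lower (11.9%, against 20.2%), with a median of 0.04. The homologous recombination gene rad51c (31 to 41 against 16.9 to 23.5 CPM, change 0.89 ± 0.10) was higher without overlap. So was the damage recognition gene xpc (0.66 ± 0.11). The genes parp2 (23.7 to 30.0 against 45.4 to 59.9 CPM, change -0.94 ± 0.09), which marks DNA breaks, and ercc8 (1.42 to 2.56 against 6.89 to 11 CPM, change -2.13 ± 0.23), of transcription-coupled repair, were lower without overlap. The number lower was 5 without surface old replicate 2, surface old replicate 3 or surface new replicate 2.

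Among genes of fatty acid and triglyceride synthesis, 13 of 35 tested were lower (37.1%) and 4 higher (11.4%), with a median of -0.16. Over all tested genes 20.2% were lower and 19.3% higher. The gene elovl4a (ENSAMXG00000016772), for an enzyme that lengthens very long-chain fatty acids, lay at 8.5, 11 and 15.7 CPM in Pachón and 55.4, 74.2 and 84.7 CPM in surface libraries. It did not overlap between the forms and changed by -2.63 ± 0.15 (adjusted p = 3.18e-08). Its relative elovl5 (-1.29 ± 0.13), the glycerol-phosphate acyltransferase gene GPAM (77.1 to 99.7 against 122 to 158 CPM, change -0.72 ± 0.07) and the malic enzyme gene me1 (-1.14 ± 0.21) were also lower. The triglyceride enzyme gene dgat1b (0.65 ± 0.12) and MLXIPL, a carbohydrate-responsive transcription factor also known as ChREBP (2.1 ± 0.39), were higher.

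Fatty acid oxidation went both ways, with 12 of 37 tested genes higher (32.4%) and 10 lower (27%), against 19.3% and 20.2% of all tested genes. The mitochondrial dehydrogenase gene hadh (ENSAMXG00000010252) lay at 26.3, 27.8 and 58.7 CPM in Pachón and 88.7, 91.5 and 104 CPM in surface libraries (change -1.49 ± 0.17, adjusted p = 2.55e-05). The hydratase gene echs1, for the preceding step, was lower too (-0.61 ± 0.08). The isomerase and reductase genes eci1 (0.61 ± 0.07) and decr1 (0.52 ± 0.07), which handle unsaturated chains, the electron carrier gene etfb (0.46 ± 0.06) and the lipid-sensing receptor gene pparab (12.5 to 19 against 3.44 to 8.13 CPM, change 1.45 ± 0.20) were higher. Of 34 tested cholesterol genes 10 were lower (29.4%, against 20.2% of all tested genes) and 4 higher (11.8%, against 19.3%). The synthesis genes lss (-1.92 ± 0.32), mvk (2 rows, -1.54 ± 0.30) and hmgcrb, for the rate-limiting reductase (39.2 to 49.7 against 51 to 97.7 CPM, change -0.67 ± 0.14), were lower. The squalene synthase gene fdft1 (0.58 ± 0.06) and the cholesterol esterifying gene soat2 (4.21 to 7.89 against 0.173 to 0.996 CPM, change 3.14 ± 0.36) were higher.

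In glycolysis and gluconeogenesis, 16 of 38 tested genes were higher (42.1%) and 12 lower (31.6%), against 19.3% and 20.2% of all tested genes. Pyruvate kinase of the liver and red cell type, pklr (ENSAMXG00000011341), lay at 13.4, 15.7 and 21.5 CPM in Pachón and 1.59, 3.03 and 5.5 CPM in surface libraries (change 2.36 ± 0.22, adjusted p = 4.59e-06). Hexokinase, hk1, was higher too (64.6 to 106 against 24.8 to 52.5 CPM, change 1.11 ± 0.16). The gluconeogenic gene fbp1a (6.95 to 10.9 against 18.2 to 29.5 CPM, change -1.35 ± 0.15), the glucose-6-phosphatase gene g6pc3 (3.25 to 4.91 against 14.2 to 21.9 CPM, change -2.17 ± 0.17), pgam1a (-0.80 ± 0.08) and the D-lactate dehydrogenase gene ldhd (-2.41 ± 0.21) were lower. None of these 6 genes, picked from the list by smallest p, overlapped between the forms. In 7 of the 38 tested genes all Pachón libraries lay above all surface libraries, and in 8 all lay below. Over all tested genes this held for 9.40% and 9.78%.

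Many genes for the machinery of respiration and translation were higher by small amounts. The members of these lists, as of all lists here, were chosen with earlier results of these data known. Their shares beside those of all tested genes are therefore a description and not a test. Over all tested genes 19.3% were higher and 20.2% lower. Of 79 tested genes of oxidative phosphorylation 39 were higher (49.4%) and 6 lower (7.59%), with a median of 0.25. Examples were the complex I subunit gene ndufs5 (33.3 to 47.9 against 17.8 to 24.7 CPM, change 0.97 ± 0.11), uqcrh of complex III (0.61 ± 0.09), and COX5B (0.57 ± 0.08) and cox7a2a (0.55 ± 0.08) of complex IV. The exceptions included ndufs8a (15.1 to 39.9 against 59.6 to 72.5 CPM, change -1.29 ± 0.19) and cox7a2l (2 rows, 1.29 to 3.24 against 7.4 to 23.5 CPM, change -2.46 ± 0.32). Of 78 tested ribosomal protein genes 35 were higher (44.9%) and 0 lower, with a median of 0.25, as in rpl11 (264 to 376 against 219.9 to 262 CPM, change 0.50 ± 0.08) and rpl14 (0.54 ± 0.10). The number higher was 57 without Pachón new replicate 2. In 1 of these 78 genes did all Pachón libraries lie above all surface libraries, against 9.40% of all tested genes. Of 48 tested proteasome genes 14 were higher (29.2%) and 4 lower (8.33%), with psma8, a subunit of germ cells in mammals, at 0.46 ± 0.07 and psmd4a at -0.45 ± 0.08.

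**Figure D5:**
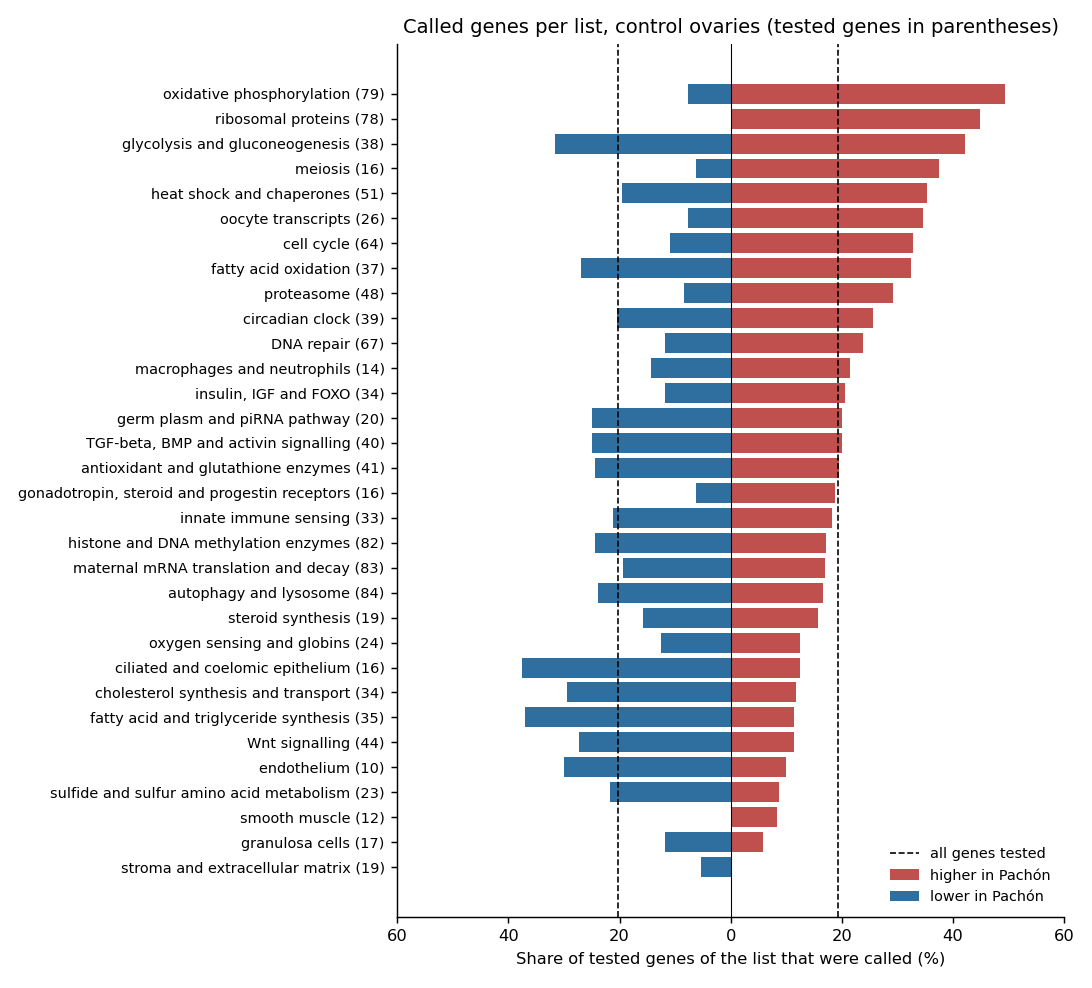
Share of the tested genes of each list that was called higher (right, red) or lower (left, blue) in Pachón ovaries, in percent, for lists with at least 10 tested genes, whose number stands in parentheses. Dashed lines mark the shares over all tested genes, 19.3% higher and 20.2% lower. The list members were chosen with earlier results of these data known, so distance from these lines is not a test. Oxidative phosphorylation (39 of 79) and ribosomal proteins (35 of 78) have the longest bars to the right.

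Redox enzymes had large single changes without a common direction, with 8 of 41 tested genes higher (19.5%) and 10 lower (24.4%). Over all tested genes 19.3% were higher and 20.2% lower. Without surface new replicate 2, 5 redox genes were higher. Thioredoxin reductase, txnrd3 (ENSAMXG00000016210, 2 rows), lay at 28, 29.8 and 36.5 CPM in Pachón and 109, 127 and 149.7 CPM in surface libraries. The forms were far apart, with a change of -2.05 ± 0.09 (adjusted p = 5.23e-09) at -2.06 in the old batch and -2.04 in the new. Also lower were msrb3, which repairs oxidized methionine (-1.53 ± 0.14), GCLC, the rate-limiting enzyme of glutathione synthesis (67 to 72.5 against 97.7 to 119 CPM, change -0.61 ± 0.06), and the mitochondrial peroxiredoxin gene prdx3 (-0.57 ± 0.11). The glutathione transferase gene gstt2 (65.9 to 81.8 against 13.3 to 31.1 CPM, change 1.93 ± 0.16) and prdx4 (0.77 ± 0.12) were higher. Among 23 tested genes of sulfide and sulfur amino acids 2 were higher (8.7%) and 5 lower (21.7%). The sulfite oxidase gene suox (-0.57 ± 0.07) was lower, and the taurine transporter gene slc6a6b (0.60 ± 0.09) and cbsa, for cystathionine beta-synthase (106 to 159 against 15.2 to 99.4 CPM, change 1.87 ± 0.33), were higher. The number lower was 3 without surface old replicate 3 or Pachón old replicate 4.

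Of 24 tested genes of oxygen sensing and globins 3 were higher (12.5%) and 3 lower (12.5%), against 19.3% and 20.2% of all genes. The growth factor gene vegfab was higher (15.5 to 21.3 against 5.71 to 11.1 CPM, change 1.07 ± 0.17) and vhll, related to the von Hippel-Lindau gene of oxygen sensing, was lower (-1.76 ± 0.41). The peptide gene adma, for adrenomedullin, was lower (change -2.8 ± 0.86, adjusted p = 0.0215). Its change was -0.97 in the old batch, where it was not called, and -5.7 in the new. Surface libraries lay at 0.865 to 4.85 CPM in the old batch and at 61.9 and 29.6 CPM in the new. Pachón libraries of both batches lay at 0.552 to 1.53 CPM. The call over both batches was lost without either new Pachón library (changes -2.09 and -2.19). Among 51 tested chaperones 18 were higher (35.3%) and 10 lower (19.6%), or 6 lower without Pachón new replicate 2. The co-chaperone gene dnajb2 (2.73 ± 0.43), HSPH1 (2.55 ± 0.50) and hspa4a (219 to 253 against 165 to 199 CPM, change 0.36 ± 0.06) were higher, and bag3, which directs chaperone-bound proteins to autophagy, was lower (0 to 0.393 against 0.929 to 4.5 CPM, change -3.28 ± 0.59).

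Of 84 tested genes of autophagy and the lysosome 14 were higher (16.7%) and 20 lower (23.8%), against 19.3% and 20.2% of all genes. The proton pump subunit gene atp6v1e1a (ENSAMXG00000013119) lay at 5.46, 7.2 and 8.23 CPM in Pachón and 35.8, 38.1 and 43.7 CPM in surface libraries (change -2.49 ± 0.13, adjusted p = 1.52e-08). The autophagy genes ATG7 (13.3 to 16.5 against 21.8 to 35.7 CPM, change -1.0 ± 0.11) and atg9a (-1.85 ± 0.23) and the protease gene ctsf (-0.90 ± 0.10) were lower, and GUSB, for beta-glucuronidase, was higher (0.79 ± 0.08). In the control of stored messenger RNA, 14 of 83 tested genes were higher (16.9%) and 16 lower (19.3%). Within the complex that removes messenger RNA caps, the catalytic subunit gene dcp2 (ENSAMXG00000030817) fell from 160.1 to 193 CPM in surface to 33 to 56.7 CPM in Pachón libraries (change -1.84 ± 0.10, adjusted p = 3.50e-08). Its activator gene dcp1a was higher (170.3 to 195 against 86 to 127 CPM, change 0.86 ± 0.08).

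Of 82 tested enzymes of histone and DNA methylation 14 were higher (17.1%) and 20 lower (24.4%), against 19.3% and 20.2% of all genes. The demethylase gene KDM1B, needed for imprints in mouse oocytes, was lower (38.2 to 51.7 against 72.1 to 86 CPM, change -0.87 ± 0.08), as was mbd3a (-0.60 ± 0.07). The arginine methyltransferase gene prmt7 (0.98 ± 0.14) and the DNA methyltransferase gene dnmt3ba (22.9 to 65.9 against 11.3 to 22.9 CPM, change 1.66 ± 0.27) were higher. Of 64 tested cell cycle genes 21 were higher (32.8%) and 7 lower (10.9%), among them the cyclin gene ccng2 (9.21 to 15.1 against 0.31 to 3.32 CPM, change 3.49 ± 0.40) and the cell cycle inhibitor gene cdkn1a (1.43 ± 0.25), both higher.

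Genes of innate sensing were called at shares near those of all tested genes, with 6 of 33 higher (18.2% against 19.3%) and 7 lower (21.2% against 20.2%). Besides sting1, the complement gene c3a.1 was higher (37.8 to 64.8 against 8.21 to 23.8 CPM, change 1.59 ± 0.23), while the bacterial sensor genes nod2 (0.511 to 2.76 against 5.11 to 15.1 CPM, change -2.7 ± 0.27) and tlr18 (-2.1 ± 0.25) and tbk1, the kinase downstream of STING (29.8 to 48.2 against 56 to 70.34 CPM, change -0.63 ± 0.11), were lower. In the list of macrophages and neutrophils 3 of 14 tested genes were higher (21.4%) and 2 lower (14.3%). The leukocyte actin regulator gene coro1a (ENSAMXG00000008438) lay at 19.8, 26.7 and 33.6 CPM in Pachón and 1.89, 2.65 and 5.88 CPM in surface libraries (change 3.1 ± 0.24, adjusted p = 6.74e-07), and the oxidase subunit gene cyba was higher (1.49 ± 0.23). The cytokine gene il1b (2 rows, -1.87 ± 0.42) and the macrophage receptor gene csf1ra (-1.58 ± 0.47) were lower, and the antigen presentation gene cd74a was not called (-0.38 ± 0.49). The call of csf1ra was lost in the old batch alone and with voom (adjusted p = 0.121 and 0.0875). The list had a median of 0.39 in the old batch and -1.72 in the new. The summed macrophage markers given above, which include cd74a and, of this list, coro1a and csf1ra, were higher in the new surface batch. The level of coro1a itself was not, at 2.52 to 5.88 CPM in the old and 1.89 and 1.99 CPM in the new surface libraries. For cd74a these levels were 3.25 to 9.5 CPM and 45.1 and 20.6 CPM, and for csf1ra 2.65 to 20.4 CPM and 16.2 and 37.4 CPM.

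Markers of neighbouring organs were looked at in short and in wider lists. In the short lists, skeletal muscle markers summed to 0.607 to 5.46 CPM in Pachón and 0.353 to 10.3 CPM in surface libraries, and liver markers to 2.16 to 6.48 and 0.155 to 1.24 CPM. Of the 3 liver rows, 2 were under 1 CPM in every library and the 1 tested was apoa1b. This sum is therefore not independent of the apoa1b value given below. In the wider skeletal muscle list 5 of 8 tested genes were higher and 0 lower. They include ckmb, for a creatine kinase (114 to 306 against 13.3 to 42.7 CPM, change 2.72 ± 0.33), casq1a (5.66 ± 0.52) and tnnt3b (2.46 ± 0.36). The change was positive in these 5 of the 8 alone. ATP2A1 (2 rows), among the rest, was not called (42.6 to 92.7 against 55 to 149.6 CPM, change -0.61 ± 0.29, adjusted p = 0.114). Of 5 tested liver genes, apoa1b was among the 2 higher (1.96 to 6.31 against 0.155 to 0.519 CPM) and tfa (0 to 0.852 against 4.34 to 16.4 CPM) and fgg (0.183 to 1.88 against 3.82 to 13.4 CPM) were the 2 lower. Among the shorter lists, 3 of 5 tested lymphocyte genes were higher and 1 lower, 2 of 7 red cell genes were higher and 2 lower, 0 of 5 adipocyte genes were higher and 2 lower, and 1 of 12 smooth muscle genes was higher and 0 lower. Over all tested genes 19.3% were higher and 20.2% lower, and these lists hold at most 12 tested genes. Of 4 tested genes of visual and pineal photoreception 1 was lower. Of 16 tested genes of ciliated and coelomic epithelium 2 were higher (12.5%) and 6 lower (37.5%). The list had a median of 0.16, with a positive change in 9 of the 16. The 2 higher were rfx3 (0.57 ± 0.16) and epcam (0.34 ± 0.08). In 4 of the 16 all Pachón libraries lay below all surface libraries, and in 0 all lay above. Over all tested genes this held for 9.78% and 9.40%. The ciliary dynein genes DNAH5 (1.01 to 3.13 against 14.7 to 59.3 CPM, change -3.6 ± 0.42) and DNAH11 (-2.85 ± 0.46), drc1 (2 rows, -3.37 ± 0.65) and the ciliary transcription factor gene rfx2 (57.5 to 83.8 against 97.3 to 164 CPM, change -0.88 ± 0.10) were lower, each without overlap.

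For the 312 genes whose difference between the forms differed between the batches, 207 had opposite signs in the batches and 107 were also called over both. CARF, with the smallest p among those with a gene symbol, had log2 values of -0.92 in the old batch and -7.14 in the new, a difference of 6.23 (adjusted p = 1.15e-05). Over both batches its change was -1.93 ± 0.64, and that call was lost without Pachón old replicate 1 (-1.98, adjusted p = 0.0508), without a filter (adjusted p = 0.0705) and without the batch term (adjusted p = 0.0633). The rhomboid protease gene rhbdl2 had log2 values of -0.37 in the old batch and 1.93 in the new, with 85.6 to 95.8 CPM in all Pachón libraries against 20.4 to 119.8 CPM in surface libraries. The lipoprotein assembly gene mttp had log2 values of 0.36 in the old batch and -7.36 in the new, and neither was called over both batches. When the 4 group means were averaged with equal weight instead, both were called, at 0.782 for rhbdl2 and -3.5 for mttp. TINAGL1 (3.29 in the old batch and 0.13 in the new) and the lysosomal protease gene lgmn (1.95 in the old batch and -0.04 in the new) were higher in the old batch, and lost their calls over both when the batch term was left out (adjusted p = 0.111 and 0.0654). For rhbdl2, TINAGL1 and lgmn the Pachón libraries lay in a narrow range, such as 25.7 to 32.6 CPM for TINAGL1, while the surface libraries spanned 2.08 to 29.7 CPM.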

How the data were processed

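Bulk RNA sequencing was analysed for 12 control ovary libraries grouped by form and batch as their titles give these. Per the labels' protocols, Trizol RNA was depleted of ribosomal RNA with a kit for human, mouse and rat before directional library preparation. STAR 2.7.10b and RSEM are listed, with no role, per the submitters' processing notes. Genome build, annotation and strand setting: not given in the sources used here. Coordinates are therefore left out, and reads of overlapping or antisense genes, or of rows that share a symbol, could not be told apart. How reads of each form matched the reference was not tested beyond the read shares in the report.

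The authors deposited whole-number counts for 27420 genes, 16752 with a symbol, plus 4 rows that name no gene, left out of library sizes and tests. Genes held 55.41% to 64.07% of all reads listed. They also deposited a scaled CPM signal for 14814 genes, used in 1 kind of alternative.

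R 4.3.3 with edgeR 4.0.16 was used. The filterByExpr function (minimum count 10, minimum total 15) set which genes were tested. Counts were scaled by TMM (0.960 to 1.05), and fitted by the quasi-likelihood method with batch and form as terms and robust estimation. Tests are 2-sided, adjusted by Benjamini-Hochberg over all 14516 genes. SE is the change over the square root of F. Within-batch values come from 4 group means on the same genes, a restriction set after the files had been seen. CPM is per 1e+06 TMM-scaled counts. The biological coefficient of variation was 21.7%, and replicates correlated at 0.952 to 0.977. Same-numbered libraries of the 2 forms showed little likeness, with 1 of 6 correlations of their deviations over 0.1. With 2 new libraries a form, the 2 new correlations are necessarily the same value (0.0683). This check therefore cannot exclude a pairing, and none entered the main test.

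The members of the 40 gene lists were chosen with earlier results of these data known. Genes named were the 15 largest rises and falls (symbol, mean log2 CPM of at least 1, same sign in both batches), the 8 of highest mean CPM per direction, up to 6 per list by smallest p, up to 6 per form without a count, 5 whose batches differ, and cell type markers, from which the text gives a part. Some genes picked by this rule are not reported here. On simulated counts for this comparison over 14516 genes, edgeR recovered 40%, 60%, 84% and 96% of 50 genes each changed 1.5-, 2-, 4- and 8-fold. All other genes were left unchanged there, while 5731 genes were called in the data. These shares therefore hold for that setting only. DESeq2 1.42.0 and limma 3.58.1 were alternatives. Floors cover counting error only.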

Additional observations from a re-analysis of the deposited data

Results flagged for a closer look

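In 25 of 380 groups of 4 libraries, 1 library's gap to the nearest of the others exceeded Dixon's critical share of the group's range, and chance alone flags about 5% of groups. In 8 of them 3 libraries had no read and the fourth had few. In surface old replicate 1 these values were 0.177 CPM for sting1, 0.177 CPM for hlfb. In surface old replicate 2 these values were 0.155 CPM for MLANA, 0.155 CPM for ucp1, 0.155 CPM for rag1. In Pachón old replicate 3 these values were 0.183 CPM for plpp7a, 0.183 CPM for LRRC73. In Pachón old replicate 4 these values were 0.382 CPM for cadm2b. 

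Surface old replicate 1 stood apart for alox12 at 1.24 CPM (nearest 70.8) and decr1 at 68 CPM (nearest 58.6). Surface old replicate 4 stood apart for ahsg2 at 18.3 CPM (nearest 0), lhx9 at 4.84 CPM (nearest 1.06), GPAM at 158 CPM (nearest 148), DNAH5 at 59.3 CPM (nearest 20.4) and rfx2 at 142 CPM (nearest 103). Pachón old replicate 4 stood apart for pcnt at 1370.0 CPM (nearest 1460.0) and hsd3b7 at 8.59 CPM (nearest 11.2). Pachón old replicate 2 stood apart for ZNRF3 at 47.4 CPM (nearest 60.7). Surface old replicate 2 stood apart for tgfbr1b at 13.6 CPM (nearest 3.63), hsd3b7 at 5.73 CPM (nearest 7.95) and cbsa at 15.2 CPM (nearest 27.4). Pachón old replicate 1 stood apart for akt2 at 132 CPM (nearest 119). Surface old replicate 3 stood apart for fn1a at 496 CPM (nearest 360.0) and ldhd at 17.3 CPM (nearest 16.1). Pachón old replicate 3 stood apart for csf1ra at 9.88 CPM (nearest 4.45). 

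The difference between the forms differed between the batches, by the test of that difference, for 10 of the genes named. As the log2 change in the old batch minus that in the new, the values were -2.55 for akt3a, 2.61 for col1a1a, 1.05 for gstt2, 1.95 for cbsa, 4.73 for adma, 6.23 for CARF, -2.3 for rhbdl2, 3.16 for TINAGL1, 1.99 for lgmn, 7.72 for mttp. The adjusted p ran from 1.15e-05 for CARF to 0.0353 for col1a1a. The adjusted p of adma was 0.0268. Summed stroma, smooth muscle and macrophage markers also differed between the surface batches, with col1a1a itself part of the stroma sum. Their part in these 10 values was not tested.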

How the results depend on the processing

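Counts of genes called stayed within 1.5 times of 2806 higher and 2925 lower in every alternative but the new batch alone (2 against 2 libraries), with 1099 higher and 1224 lower. There, 90 called genes changed sign, against 0 in each other alternative. Leaving out each library in turn gave 2445 to 2847 genes higher and 2555 to 2961 lower. The alternatives were DESeq2 size factors, library size only, no filter, at least 50 counts in 6 libraries, DESeq2, voom with sample weights, limma on scaled CPM with pseudocounts of 1 and 0.1, all 22 libraries, 4 group means, no batch term, each batch alone, and the replicate block. DESeq2 called 3009 and 3050, and 16.9% of its calls on simulated counts were false. That simulation changed far fewer genes than are called here, so this share is no estimate for the data. With the replicate block, 2670 genes were called higher and 2697 lower, and 5 named genes lost their call: cyp19a1a, hsd3b7, fn1a, adma and CARF (adjusted p = 0.0535, 0.0591, 0.059, 0.0669 and 0.108). Numbers correlated best with their own partner in 4 of 6 pairs.

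Of 190 named genes, 174 were called, and 111 of these were called in the same direction in every alternative that gave a value. The stricter filter left some genes without one. The new batch alone lost 54. Signs reversed for rhbdl2 in the old batch alone (-0.367), col1a2 in the new (-1.07) and lgmn in the new (-0.0379). Sign changes of genes called in neither fit are not counted. The cause was not tested. Libraries of 4860620 to 6511376 counts limit what can be seen of genes below 1 CPM, and 2 new libraries a form limit the within-batch values.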
